A study of Mus musculus with 12 samples.

Results

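Matrix metalloproteases (MMPs), the related ADAM and ADAMTS proteases and their inhibitors, the TIMPs, were examined in RNA-seq data of mouse lung endothelial cells (MLECs) from mice made for an endothelial double deletion of the transcription factors Sp1 and Sp3 (dKO) and from controls (CTR). The members were the protein-coding genes whose symbol starts with Mmp, Timp, Adam, Adamts or Adamtsl followed by a digit. The annotation held 86 such genes, 74 of them had a row among the 28689 genes of the deposited table, and 43 were high enough to be tested. The other 12 annotated members, Mmp7 among them, were not analysed here. Both groups carried floxed alleles of Sp1 and Sp3 (Sp1 fl/fl/Sp3 fl/fl) and both received tamoxifen. The dKO mice also carried VE-CAD-CreERT2, a tamoxifen-inducible Cre driven by the VE-cadherin promoter, and the CTR mice are described as littermates that lacked it. The labels call the CTR genotype WT, although these mice carried the floxed alleles. MLECs were isolated from digested lungs of adult male mice by beads against CD31 and, after culture, by beads against intercellular adhesion molecule 2, and were used at early passages. There were 6 libraries in each group, and how many mice stand behind a library is not given, so p-values measure the spread between these libraries.

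Most MMPs are secreted as zymogens and, once activated, cut collagens, elastin and basement membrane, whereas membrane-type MMPs act at the cell surface. ADAMs are mainly transmembrane proteases that release the outer domains of receptors, cytokines and adhesion molecules, including vascular endothelial cadherin. ADAMTS proteases are secreted and trim procollagens, proteoglycans and von Willebrand factor, ADAMTS-like proteins have no protease domain, and TIMPs bind and inhibit the active enzymes.

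Sp1 was lower in every dKO library than in every CTR library, with a mean of 21.2 FPKM (fragments per kilobase of gene, scaled to library size) in CTR and 10.6 in dKO MLECs (log2 fold change −0.95 ± 0.09 SE, adjusted p = 5.68e-06, limma). Sp3 had mean levels of 27.7 and 25.00 FPKM with overlapping groups (log2 fold change −0.14, adjusted p = 0.0902, limma). Without CTR library 6 the log2 fold change of Sp3 was −0.18 (adjusted p = 0.0326, limma). At the gene level Sp3 thus stayed near that of the controls (95% interval of the log2 fold change −0.29 to 0.00). The deleted exons are not given in the sources used here, so gene levels need not show the deletion. Mmrn1, a platelet and endothelial protein, held 8783 fragments in CTR and 0 in all 6 dKO libraries (8.46 to 19.3 FPKM in CTR). A genetic difference between the groups beyond Cre cannot be told apart from the knockout. The libraries held 15523054 to 17938286 fragments, so a single fragment of a 2 kb gene corresponded to 0.0279 to 0.0322 FPKM. The cultures held RNA of several cell types. The summed level of 12 endothelial markers was 210.1 to 346 FPKM in CTR and 388 to 524 in dKO libraries, and 11 of the 12 were higher in dKO MLECs. Over 10 macrophage markers the sum was 769.6 to 1319.7 against 1842 to 3856 FPKM, with 9 higher and Marco lower. The sum of 8 fibroblast markers was 2128 to 2710.4 against 829 to 1662 FPKM, and of the 7 tested, Col1a1, Col1a2 and Col3a1 were lower and Dcn was higher. The 5 mesothelial markers summed to 21.4 to 30.6 against 58.1 to 135 FPKM. In none of these lists was a marker at 0 in all libraries. Fewer cells of a type and less RNA per cell cannot be told apart in bulk RNA. The labels' protocol speaks of retinas, and all 6 retina markers were below 1 FPKM in every library.

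Of the 43 tested members, 29 passed an adjusted p of 0.05, with 17 higher and 12 lower in dKO than in CTR MLECs. Among all 12467 genes tested, 53.1% passed the same threshold, 20.4% higher and 32.6% lower. The direction of that background depended on the scaling, with 2549 genes higher and 4065 lower in the deposited FPKM, and 3213 higher and 3012 lower after median-of-ratios scaling. Under that scaling the members stood at 19 higher and 11 lower, and 49.9% of all genes tested passed. The median log2 fold change was 0.15 over the tested members and −0.10 over all genes tested. An absolute log2 fold change over 1 was reached in addition by 13 members, against a background of 5.93%. Mmp12, Adam8, Mmp8, Mmp10, Mmp27 and Timp2 were the 6 higher ones (background 3.83%), and Adamts15, Mmp11, Adamtsl2, Mmp23, Adamts3, Adam23 and Adamts14 the 7 lower ones (background 2.1%). In 14 members, 8 higher and 6 lower, no dKO library lay within the range of the CTR libraries, and 27.4% of all genes tested behaved this way. Of the tested members, 35 had at least 1 FPKM in all 12 libraries, and Mmp12 alone passed the filter on low values through its dKO libraries only, so that its passing already required a difference. Another 4 members reached 1 FPKM in all 6 CTR libraries and in fewer dKO libraries.

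**Figure D1:**
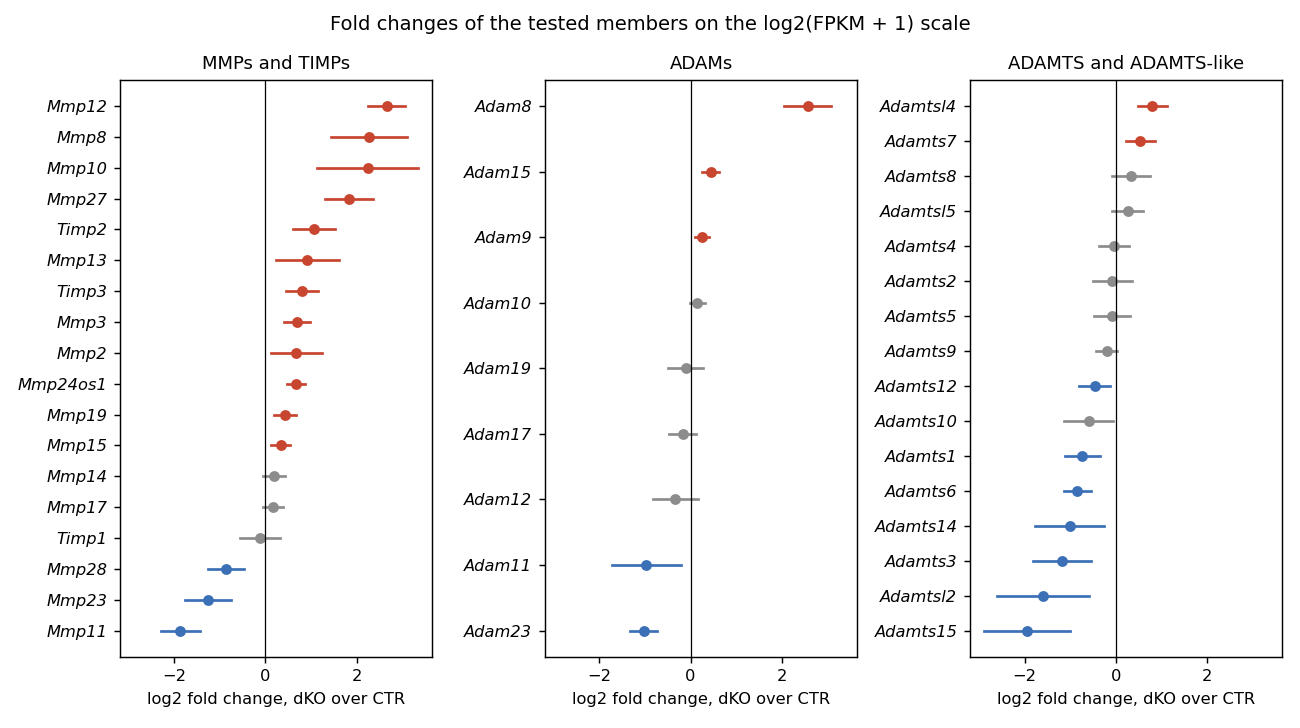
Log2 fold change (dKO over CTR, on the log2(FPKM + 1) scale) of each of the 43 tested members with its 95% confidence interval from limma, in 3 panels by family. Red marks the 17 members higher and blue the 12 lower in dKO MLECs at an adjusted p of 0.05, and grey the 14 that did not pass.

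By family, the calls read as follows, as a description, since the difference between families was not tested. Mmp24os1, which is no metalloprotease and was higher, is left out of these family counts. Of 14 tested Mmp genes, 9 were higher and 3 lower, with a median log2 fold change of 0.56. Of 13 Adamts genes, 1 was higher and 6 lower, with a median of −0.46. Among 9 Adam genes, 3 were higher and 2 lower, among 3 Timp genes 2 were higher and 0 lower, and among 3 Adamtsl genes 1 was higher and 1 lower. The share that passed was 85.7% of the Mmp genes, and 55.6% of the Adam and 53.8% of the Adamts genes, which is near the 53.1% of all genes tested.

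The most abundant members in CTR MLECs were Timp1 (199 ± 53.3 FPKM, SD, n = 6), Adamts1 (119 ± 26.5), Adam9 (116 ± 11.01), Timp2 (107 ± 40.5) and Mmp14 (87.9 ± 9.90). The ranges of neighbours in this order overlapped. In dKO MLECs Mmp8 led with 223 ± 71.3 FPKM, followed by Timp2 with 215 ± 37.4, Timp1 with 184 ± 52.7, Adam9 with 138 ± 8.40 and Mmp14 with 101 ± 15.6, with overlapping ranges between neighbours except Adam9 and Mmp14. Mmp8 thus moved from rank 8 to rank 1, Mmp11 from rank 6 to rank 18 and Adamts1 from rank 2 to rank 7.

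**Figure D2:**
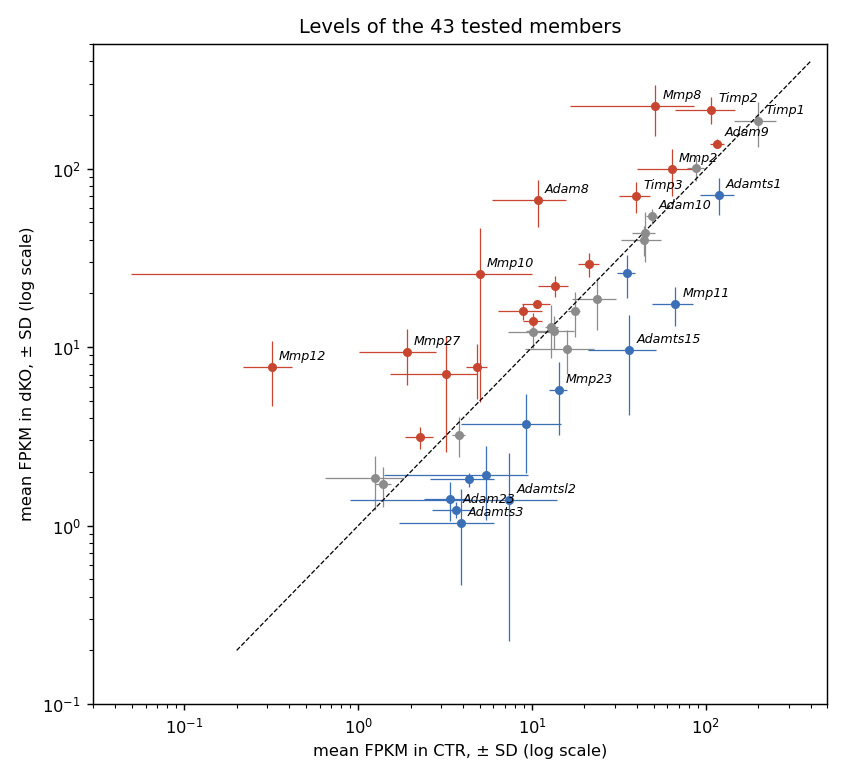
Mean FPKM of the 43 tested members in CTR (horizontal) and dKO (vertical) MLECs on log scales, with the SD over 6 libraries as bars and the line of equal levels dashed. Red marks members higher and blue members lower in dKO MLECs, and Mmp12 and Adam8 lie far above the line while Mmp11 and Adamts15 lie below it.

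Among the collagenases, which cut fibrillar collagen, Mmp8 (ENSMUSG00000005800, chr9:7558457-7568487, GRCm39) was higher in dKO MLECs. It is the collagenase best known from neutrophil granules. Its lowest, median and highest levels were 18.3, 42.1 and 114 FPKM in CTR and 99.4, 228 and 313 FPKM in dKO libraries. Only CTR library 4, the highest of its group, reached above a dKO library, dKO library 1, and the 5 other dKO libraries exceeded all CTR libraries. The mean rose 4.37-fold from 51.1 ± 34.7 to 223 ± 71.3 FPKM (SD, n = 6), a log2 fold change of 2.27 ± 0.39 (SE, adjusted p = 0.000355). The 7 neutrophil markers summed to 0.820 to 4.18 FPKM in CTR and 4.10 to 13.7 FPKM in dKO libraries, with CTR library 3 just above dKO library 4. S100a8, the 1 marker high enough to test, was 0.589 to 3.31 FPKM in CTR and 3.94 to 8.45 FPKM in dKO libraries, without overlap (log2 fold change 1.13, adjusted p = 0.00256). S100a9 reached 0.810 FPKM in CTR and 3.80 FPKM in dKO libraries and Ngp 0.346 and 1.72 FPKM, while Mpo, Elane, Ly6g and Camp were below 1 FPKM in all libraries. The part of neutrophil RNA in the rise of Mmp8 was not tested. Mmp13, or collagenase 3 (chr9:7272514-7283331), had 1.11, 3.33 and 5.20 FPKM in CTR and 4.19, 5.49 and 16.1 FPKM in dKO libraries. The groups overlapped, and dKO library 1 stood apart at the top. Its log2 fold change was 0.92 ± 0.32 (adjusted p = 0.0271), and it did not pass without CTR library 4 (0.75, adjusted p = 0.0528) or CTR library 5 (0.80, adjusted p = 0.0611). The collagenases Mmp1a and Mmp1b were not tested, with 1 fragment for Mmp1a over the 12 libraries and, for Mmp1b, 24 over the CTR and 34 over the dKO libraries.

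The gelatinases degrade denatured collagen and type IV collagen. Mmp2 had 36.3, 65.7 and 96.6 FPKM in CTR and 55.9, 98.5 and 142 FPKM in dKO libraries. The groups overlapped widely, with CTR libraries 1 and 6 and dKO library 1 at the low ends and CTR library 4 and dKO library 4 at the high ends. Its log2 fold change of 0.67 ± 0.26 had an adjusted p of 0.0431, which rose to between 0.0538 and 0.0931 when CTR library 1, 3 or 6 or dKO library 2, 3, 4, 5 or 6 was left out, with log2 fold changes of 0.53 to 0.71. Mmp9, the other gelatinase, was below the filter at 0.0167 to 0.132 FPKM in CTR and 0 to 0.200 FPKM in dKO libraries.

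The stromelysins Mmp3 and Mmp10 have broad matrix substrates and can activate other MMPs. Mmp10 (ENSMUSG00000047562, chr9:7502353-7510241) had 0.765, 3.76 and 14.4 FPKM in CTR and 9.81, 20.1 and 66.7 FPKM in dKO libraries. Library 1 was the highest of both groups, and CTR library 1 exceeded dKO libraries 3 and 4. The log2 fold change was 2.24 ± 0.51 (adjusted p = 0.00273), with a 95% confidence interval of 1.14 to 3.35 that was the widest among the MMPs. Mmp3 (chr9:7445822-7455975) had 9.23, 13.4 and 17.5 FPKM in CTR and 17.1, 21.9 and 25.4 FPKM in dKO libraries. The groups met only where CTR library 4 exceeded dKO library 2. Mmp3 was higher by 0.69 ± 0.13 on the log2 scale (adjusted p = 0.000753). Mmp11, or stromelysin 3 (ENSMUSG00000000901, chr10:75759055-75772330), is activated inside the cell by furin and is known from stromal fibroblasts. It went the opposite way, with 43.5, 64.9 and 88.9 FPKM in CTR and 10.4, 18.7 and 23.1 FPKM in dKO libraries. Every dKO library was below every CTR library. The mean was 3.80-fold lower in dKO MLECs, 17.5 ± 4.36 against 66.5 ± 17.7 FPKM, with a log2 fold change of −1.86 ± 0.20 (adjusted p = 1.10e-05, exact permutation test, two-sided, p = 0.00216, the smallest that 924 assignments of the libraries allow). The summed fibroblast markers, 2128 to 2710.4 FPKM in CTR and 829 to 1662 FPKM in dKO libraries, lay lower too, a sum carried by Col1a1, Col1a2 and Col3a1. Of the other tested markers, Dcn was higher (1.33), and Pdgfra (−0.18, adjusted p = 0.564) and Tcf21 (0.38, adjusted p = 0.332) did not pass. Dpt did not pass either (−1.42, adjusted p = 0.0659), although its mean was 13.0 FPKM in CTR and 2.56 FPKM in dKO MLECs. The part of fibroblast RNA in this result was not tested.

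The largest rise among the tested members belonged to Mmp12, the macrophage elastase (ENSMUSG00000049723, chr9:7344381-7369499). Its lowest, median and highest levels were 0.190, 0.333 and 0.444 FPKM in CTR libraries, which rested on 235 fragments over 6 libraries, and 4.46, 7.22 and 12.6 FPKM in dKO libraries, which rested on 5720. No CTR library reached 1 FPKM and all dKO libraries exceeded 4 FPKM, with dKO library 1 highest. Mmp12 thus entered the test through its dKO libraries only, so its adjusted p below is a description and not added support. Mmp12 shares 157 exon bases (2.2%) with Mmp1b, which was too low to test, on the opposite strand. The ratio of mean FPKM was 24.5. On the log2(FPKM + 1) scale, which understates the change of low genes, the fold change was 2.67 ± 0.19 (adjusted p = 6.50e-07), and it was 4.54 with a pseudocount of 0.01. Mmp27 (ENSMUSG00000070323, chr9:7571397-7581891) had 0.771, 1.95 and 3.11 FPKM in CTR and 4.83, 9.13 and 14.5 FPKM in dKO libraries. The groups did not overlap, with CTR library 4 the highest control and dKO library 5 the lowest knockout. The mean was 4.91-fold higher, and the log2 fold change was 1.83 ± 0.24 (adjusted p = 5.54e-05). The macrophage markers Cd68 (67.1 to 107 against 255 to 519 FPKM) and Lyz2 (523 to 999 against 1336 to 2953 FPKM) were also higher in every dKO library than in every CTR library. Of the 10 macrophage markers, 7 were higher without overlap, Mrc1 and Mertk were higher with overlap, and Marco was lower (95.1 to 148 against 12.4 to 104 FPKM, log2 fold change −1.91, adjusted p = 0.00404). The groups did not overlap in 27.4% of all genes tested. Fcgr1, among the 7, reached 1 FPKM in no CTR library, so its passing the filter already required a difference. The part of macrophage RNA in the rise of Mmp12 and Mmp27 was not tested.

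Among the other secreted MMPs, Mmp19, which cleaves basement membrane proteins, was 21.2 ± 2.93 FPKM in CTR and 29.2 ± 4.40 FPKM in dKO MLECs (log2 fold change 0.44, adjusted p = 0.00602), with CTR libraries 1 and 2 above dKO library 1. It shares 30.6% of its exon bases with Tmem198b on the opposite strand, and the use of strand in counting is not given in the sources used here. Mmp28, or epilysin, was 4.34 ± 1.74 FPKM in CTR and 1.82 ± 0.163 FPKM in dKO MLECs (log2 fold change −0.86 ± 0.18, adjusted p = 0.00179). All dKO libraries were below all CTR libraries, although narrowly, since dKO library 4 at 1.99 FPKM almost reached CTR library 1. Mmp28 overlaps 1700020L24Rik on the opposite strand in 12.9% of its exon bases (969 bases). That gene matched Mmp28 at 99.3% identity over 574 bases, in a search that did not leave out overlapping genes. The match may therefore be the overlap itself. The level of Mmp28 is uncertain to that extent. Mmp23 (ENSMUSG00000029061, chr4:155735111-155738378), which is held in the membrane by its amino-terminal end, had 11.02, 14.6 and 15.4 FPKM in CTR and 2.06, 6.10 and 9.43 FPKM in dKO libraries. The groups did not overlap, and CTR library 6 and dKO library 1 were the lowest of their groups. Mmp23 changed by −1.26 ± 0.23 on the log2 scale (adjusted p = 0.000609).

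**Figure D3:**
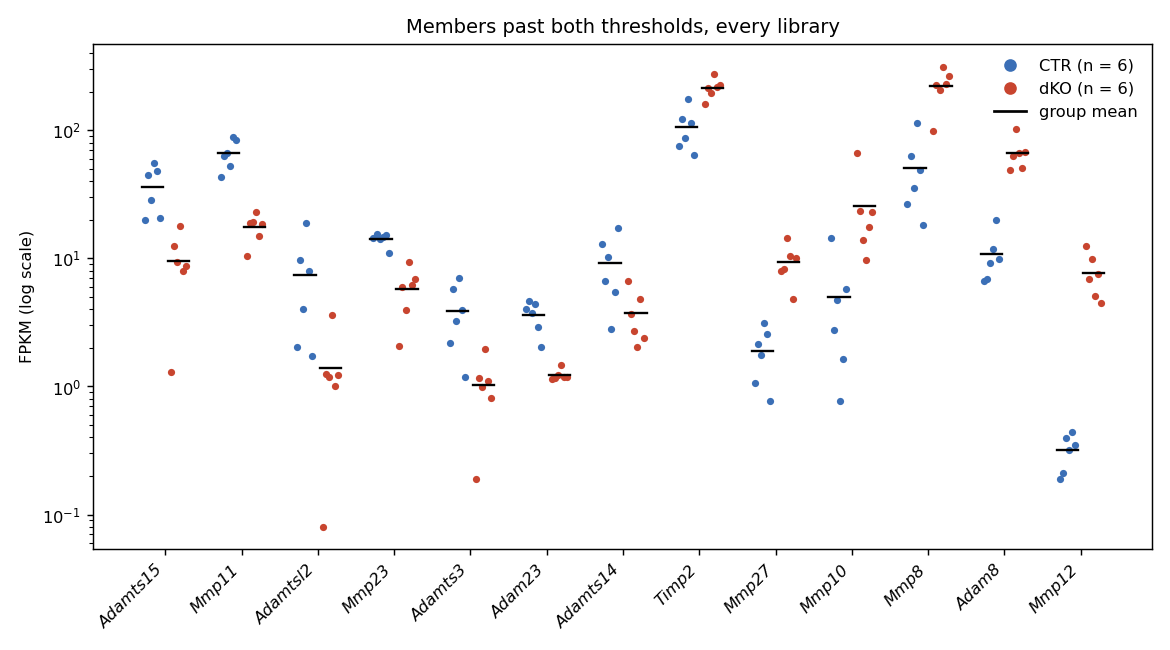
FPKM on a log scale in every CTR (blue) and dKO (red) library for the 13 members past both thresholds, ordered by fold change, with a bar at each group mean. In 7 of the 13 (Adamts15, Mmp11, Mmp23, Adam23, Mmp27, Adam8 and Mmp12) the groups do not overlap, as in 27.4% of all genes tested. The lowest point of every lower member shown except Adamts14 is dKO library 1.

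Of 3 tested membrane-type MMPs, 1 passed. Mmp14 (MT1-MMP), which activates pro-MMP2 at the cell surface, had 76.6, 87.6 and 99.8 FPKM in CTR and 76.4, 104 and 115 FPKM in dKO libraries. The groups overlapped, and dKO library 3 was just below the lowest CTR library. The log2 fold change was 0.19 with a 95% interval of −0.04 to 0.43 (adjusted p = 0.156), and without dKO library 3 it was 0.27 (adjusted p = 0.0328). Mmp15 was higher by 0.33 on the log2 scale (adjusted p = 0.0114) and Mmp17 did not pass (0.17, adjusted p = 0.201). Mmp16, Mmp24 and Mmp25 were not tested. Mmp24os1 matches the symbol rule but is no metalloprotease; it lies on the opposite strand of Mmp24, and 42.3% of its exon bases lie within exons of Mmp24. It had 8.80, 10.3 and 14.4 FPKM in CTR and 16.4, 17.2 and 18.8 FPKM in dKO libraries, without overlap (log2 fold change 0.67, adjusted p = 8.66e-05), while Mmp24 itself stayed at or below 0.0854 FPKM.

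The 6 tested Mmp genes that rose and share 1 stretch of chromosome 9 are Mmp13, Mmp12, Mmp3, Mmp10, Mmp8 and Mmp27. This set was singled out after its values were seen, and no test was made of it. The stretch chr9:7272514-7699587 (427.1 kb) holds 10 annotated Mmp genes and no other coding gene. All 6 tested ones were higher in dKO MLECs, as were 20.4% of all genes tested, and nothing is read from this count since the set was chosen for it. Mmp1b, Mmp1a and Mmp20 were too low to test, and Mmp7 was not analysed here. Of 9 tested coding genes within 1000 kb on either side, Pdgfd was higher (log2 fold change 1.41, adjusted p = 7.51e-06), Dync2h1 (−0.67), Dcun1d5 (−0.34) and Cfap300 (−0.47) were lower, and Tmem123, Birc2, Birc3, Yap1 and Trpc6 did not pass. The rise of the 6 Mmp genes was not even in size, from 0.69 for Mmp3 to 2.67 for Mmp12 on the log2 scale, nor did they follow each other across libraries: Mmp10 and Mmp13 were highest in library 1 of both groups, whereas Mmp8 was highest in library 4 of both.

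**Figure D4:**
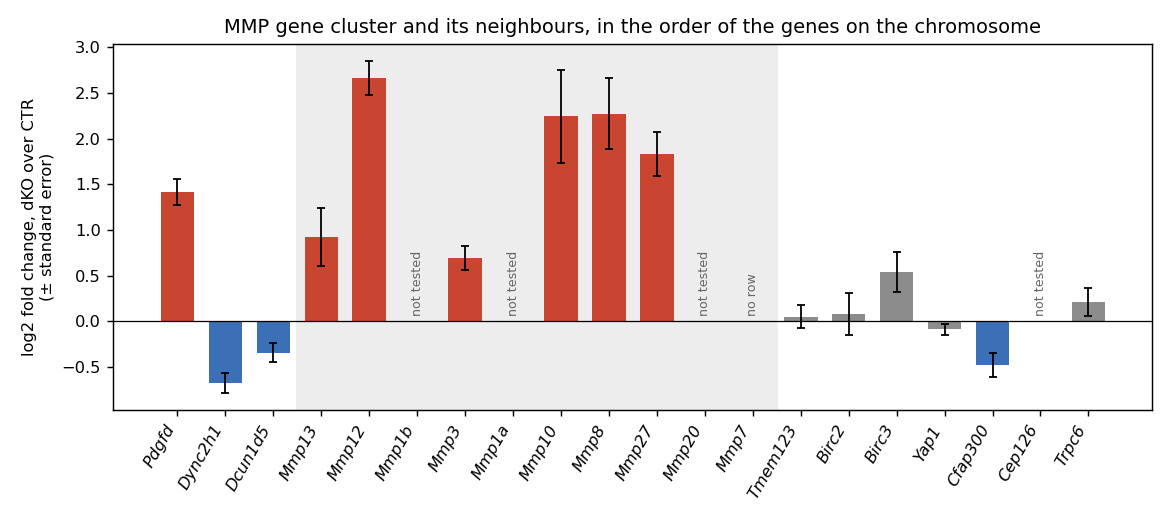
Log2 fold change (dKO over CTR, ± SE from limma) of the coding genes of the chromosome 9 Mmp stretch (grey background) and of its neighbours within 1000 kb, in their order along the chromosome and not to scale. Red bars passed higher, blue bars passed lower and grey bars did not pass; all 6 tested genes inside the stretch are red.

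The promoters of these 6 genes are shown because an AP-1 site, bound by Fos and Jun proteins, is the known control element of several inducible MMP genes, and Mmp11 and Adam8 are shown because they carry GC boxes, the sites that Sp1 and Sp3 bind. Each line gives the 100 bases upstream of the start of the gene's canonical transcript in GRCm39, 5′ to 3′ on the strand of the gene, with AP-1 sites (TGAGTCA or its complement TGACTCA) and GC boxes (GGGCGG or its complement CCGCCC) in capitals.
Mmp13: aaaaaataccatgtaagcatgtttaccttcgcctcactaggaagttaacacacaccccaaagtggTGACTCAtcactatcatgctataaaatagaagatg
Mmp12: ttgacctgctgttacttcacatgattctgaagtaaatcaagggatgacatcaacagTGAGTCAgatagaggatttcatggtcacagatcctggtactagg
Mmp3: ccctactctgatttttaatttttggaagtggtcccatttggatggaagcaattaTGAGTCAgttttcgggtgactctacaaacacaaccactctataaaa
Mmp10: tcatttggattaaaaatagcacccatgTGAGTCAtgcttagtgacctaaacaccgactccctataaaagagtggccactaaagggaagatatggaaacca
Mmp8: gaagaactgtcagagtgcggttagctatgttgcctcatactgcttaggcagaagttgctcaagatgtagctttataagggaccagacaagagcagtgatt
Mmp27: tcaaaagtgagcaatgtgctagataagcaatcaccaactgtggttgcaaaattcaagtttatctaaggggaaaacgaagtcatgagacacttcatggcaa
Mmp11: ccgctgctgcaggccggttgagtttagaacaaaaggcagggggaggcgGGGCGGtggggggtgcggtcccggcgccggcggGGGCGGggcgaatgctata
Adam8: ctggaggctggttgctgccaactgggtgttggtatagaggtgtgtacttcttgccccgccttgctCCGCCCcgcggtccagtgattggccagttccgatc

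The windows are chr9:7272414-7272513 for Mmp13, chr9:7347274-7347373 for Mmp12, chr9:7445722-7445821 for Mmp3, chr9:7502253-7502352 for Mmp10, chr9:7558357-7558456 for Mmp8 and chr9:7571297-7571396 for Mmp27, all on the plus strand, and chr10:75768337-75768436 for Mmp11 and chr7:139572476-139572575 for Adam8 on the minus strand. The AP-1 letters began 35 bases before the start in Mmp13, 44 in Mmp12, 46 in Mmp3 and 73 in Mmp10, and were not in these windows of Mmp8 and Mmp27. Over 250 bases upstream, 8 of the 43 tested members (18.6%) held an AP-1 site, against 3.13% of the promoters of 11303 tested coding genes. Of the 17 higher members, 5 (29.4%) held it, those 4 and Mmp19, against 4.3% of all higher tested coding genes. Those 4 belong to the set singled out after its values were seen. The others were Adamts3 and Mmp28 among the lower members (2.49% of all lower tested coding genes) and Adam19, which did not pass. GC boxes were in 20 of the 43 members (46.5%) and in 50.6% of all promoters of that length, with 7 of 17 higher and 5 of 12 lower members. Over all tested coding genes they were in 48.3% of the higher and 50.5% of the lower ones. No GC box lay in the 250 bases of any of the 6 chromosome 9 genes. A match is a description of letters, and binding was not measured.

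Of the 3 tested TIMPs, Timp2 and Timp3 were higher in dKO MLECs and Timp1 did not pass. Timp2 (ENSMUSG00000017466, chr11:118191887-118246566) inhibits MMPs and also takes part with Mmp14 in the activation of pro-MMP2. It had 64.5, 101 and 175 FPKM in CTR and 161, 216 and 275 FPKM in dKO libraries. Only CTR library 4 exceeded a dKO library, dKO library 1. The mean was 2.01-fold higher, and the log2 fold change was 1.06 ± 0.21 (adjusted p = 0.0011). Timp3, which binds the matrix and also inhibits ADAM17 and several ADAMTS proteases, had 26.9, 39.5 and 49.3 FPKM in CTR and 50.4, 75.3 and 82.8 FPKM in dKO libraries. The groups did not overlap, with CTR library 5 just below dKO library 1. Timp3 was higher by 0.81 ± 0.16 on the log2 scale (adjusted p = 0.00104), and its gene overlaps Syn3, which was near 0, on the opposite strand in 21.3% of its exon bases. Timp1, the most abundant member in CTR MLECs, had 129, 194 and 287 FPKM in CTR and 126, 181 and 273 FPKM in dKO libraries. Both groups covered nearly the same range, with library 1 highest in each. The log2 fold change was −0.11 with a 95% interval of −0.55 to 0.32 (adjusted p = 0.653). Timp4 was not tested, at 0.0997 to 0.991 FPKM in CTR and 0.219 to 0.993 FPKM in dKO libraries.

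Among the ADAMs with a zinc-binding site, Adam8 (ENSMUSG00000025473, chr7:139558845-139572475), a protease known from leukocytes, had the second largest rise of the tested members. Its lowest, median and highest levels were 6.71, 9.53 and 19.96 FPKM in CTR and 48.8, 64.9 and 103 FPKM in dKO libraries. The groups were far apart, with CTR library 5 and dKO library 3 the highest of their groups. The mean was 6.20-fold higher, 66.7 ± 19.4 against 10.8 ± 4.90 FPKM, and the log2 fold change was 2.57 ± 0.24 (adjusted p = 4.07e-06). Library 3 of the dKO group also had the highest sum of macrophage markers (3856 FPKM). In the CTR group that sum was highest in library 4 (1319.7 FPKM), and it was 1120.5 FPKM in library 5, where Adam8 was highest. Lyz2 carried most of these sums (2953 FPKM in dKO library 3, 999 in CTR library 4 and 830 in CTR library 5). Among CTR libraries, Cd68, Csf1r, Itgam and Fcgr1 were highest in library 5. Lyz2, Adgre1, Cd14 and Mertk were highest in library 4, and Mrc1 and Marco in library 3. The part of macrophage RNA in the level of Adam8 was not tested. Adam15, known from endothelial cells, was 10.1 ± 1.23 FPKM in CTR and 14.05 ± 1.41 FPKM in dKO MLECs, without overlap (log2 fold change 0.44 ± 0.09, adjusted p = 0.00102). Adam9 was higher by 0.25 on the log2 scale (adjusted p = 0.0109).

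Adam10 and Adam17 are the main sheddases of the cell surface, for Notch receptors and vascular endothelial cadherin and for tumour necrosis factor respectively. Adam10 had 42.2, 50.1 and 51.3 FPKM in CTR and 46.6, 56.3 and 58.5 FPKM in dKO libraries. CTR library 6 was the lowest of all 12, dKO libraries 1 and 6 lay within the CTR range, and the 4 other dKO libraries lay above it. Its log2 fold change was 0.15 with a 95% interval of −0.01 to 0.31 (adjusted p = 0.104), and without dKO library 1 it was 0.19 (adjusted p = 0.0329). Adam17 had 15.6, 17.7 and 18.99 FPKM in CTR and 11.99, 15.3 and 24.6 FPKM in dKO libraries. Library 5 of the dKO group was the highest of all 12, and 4 of the other dKO libraries were below all CTR libraries. The log2 fold change was −0.17 with a 95% interval of −0.46 to 0.13 (adjusted p = 0.32), and without dKO library 5 it was −0.30 (adjusted p = 0.0161), so this library decided the call. Adam19 (−0.10) and Adam12 (−0.33) did not pass.

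The ADAMs without a zinc-binding site have no protease activity and bind LGI proteins or integrins. Adam23 (ENSMUSG00000025964, chr1:63484875-63635436) had 2.02, 3.88 and 4.68 FPKM in CTR and 1.14, 1.18 and 1.48 FPKM in dKO libraries. Every dKO library was below every CTR library, and the dKO libraries lay close together. Adam23 changed by −1.03 ± 0.13 on the log2 scale (adjusted p = 5.19e-05). Adam11 had 1.68, 4.89 and 12.9 FPKM in CTR and 0.659, 1.89 and 3.36 FPKM in dKO libraries. The groups overlapped, with CTR libraries 1 and 6 low and CTR library 4 high. Its log2 fold change was −0.97 ± 0.35 (adjusted p = 0.0325), and the adjusted p was between 0.0508 and 0.0667 without CTR library 2, 3, 4 or 5 or dKO library 1, 5 or 6, with log2 fold changes of −0.99 to −0.71. Adam22 was below the filter. All 11 ADAMs known mainly from the testis or epididymis were below the filter as well.

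The proteoglycan-cleaving ADAMTS proteases cut versican, aggrecan and related proteins. Adamts15 (ENSMUSG00000033453, chr9:30810451-30833863) had the largest fall of the tested members on the log2(FPKM + 1) scale, from 19.8, 36.5 and 56.1 FPKM in CTR to 1.29, 9.09 and 17.8 FPKM in dKO libraries (lowest, median and highest). The groups did not overlap, although dKO library 4 came close to CTR library 1, and dKO library 1 was far below the rest. The mean was 3.77-fold lower, less than the 5.32-fold of Adamtsl2 and the 3.80-fold of Mmp11, and Adamtsl2 also fell more with a pseudocount of 0.1 (−2.30 against −2.12) or 0.01 (−2.51 against −2.14). On the log2(FPKM + 1) scale, the fold change was −1.94 ± 0.44 (adjusted p = 0.00251; exact permutation test, two-sided, p = 0.00216). Adamts1, also known as an inhibitor of angiogenesis, had 82.7, 113 and 157 FPKM in CTR and 47.9, 71.9 and 91.5 FPKM in dKO libraries. Overlap came from CTR library 6, which was lower than dKO libraries 2 and 4. Adamts1 fell by 0.73 on the log2 scale (SE 0.18, adjusted p = 0.00382). Adamts4 (−0.04), Adamts5 (−0.08), Adamts8 (0.34) and Adamts9 (−0.20) did not pass, with adjusted p between 0.141 and 0.824.

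The procollagen N-proteinases remove the amino-terminal propeptide of fibrillar collagens, and Adamts3 also processes the lymphatic growth factor VEGFC. Adamts3 (ENSMUSG00000043635, chr5:89822720-90031649) had 1.18, 3.61 and 6.99 FPKM in CTR and 0.190, 1.05 and 1.95 FPKM in dKO libraries. Only CTR library 6 was lower than a dKO library, dKO library 4, and dKO library 1 was the lowest of all. The log2 fold change was −1.18 ± 0.29 (adjusted p = 0.0047). Adamts14 (ENSMUSG00000059901, chr10:61032891-61109232) had 2.80, 8.49 and 17.3 FPKM in CTR and 2.05, 3.21 and 6.69 FPKM in dKO libraries. Here library 4 was the lowest of both groups, and CTR library 6 was highest. Its log2 fold change of −1.01 ± 0.35 (adjusted p = 0.0264) had an adjusted p between 0.0514 and 0.0572 and a size of −0.96 to −0.81 without CTR library 1, 3 or 6 or dKO library 3, 4 or 6. Adamts2, the third of these enzymes, did not pass (−0.07, 95% interval −0.49 to 0.35, adjusted p = 0.771). Of their substrates, Col1a1 was 1070.3 to 1267 FPKM in CTR and 395 to 685 FPKM in dKO libraries, and Col3a1 was 346 to 716 against 115 to 360.2 FPKM. These collagens also mark fibroblasts. Of the other tested markers of these cells, Col1a2 was lower (−0.77), Dcn was higher (1.33), and Pdgfra (−0.18) and Tcf21 (0.38) did not pass. Dpt did not pass either (−1.42, adjusted p = 0.0659, limma), although its mean was 13.0 FPKM in CTR and 2.56 FPKM in dKO MLECs. The part of fibroblast RNA in the lower levels of Adamts3, Adamts14 and Adamts15 was not tested.

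Adamts7 and Adamts12, which cleave cartilage oligomeric matrix protein, went in opposite directions. Adamts7 was 4.84 ± 0.650 FPKM in CTR and 7.73 ± 2.63 FPKM in dKO MLECs (log2 fold change 0.54 ± 0.15, adjusted p = 0.00882). The groups did not overlap, and dKO library 5 was far above the others. Adamts12 was 35.01 ± 4.26 FPKM in CTR and 25.9 ± 7.10 FPKM in dKO MLECs (log2 fold change −0.46 ± 0.16, adjusted p = 0.0279). The groups overlapped, and the adjusted p was between 0.0524 and 0.0623 and the log2 fold change between −0.43 and −0.36 without CTR library 2 or 5 or dKO library 1, 3 or 6. Adamts6 and Adamts10 act on fibrillin microfibrils. Adamts6 had 2.33, 3.21 and 5.13 FPKM in CTR and 0.942, 1.43 and 1.92 FPKM in dKO libraries, without overlap (log2 fold change −0.84 ± 0.14, adjusted p = 0.000274), and Adamts10 did not pass (−0.60, adjusted p = 0.0615). Adamts13, which cuts von Willebrand factor, was represented by 1 fragment over the 12 libraries.

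Of the ADAMTS-like proteins, several of which bind fibrillin, Adamtsl2 (ENSMUSG00000036040, chr2:26949885-26998993) had 1.74, 5.97 and 18.9 FPKM in CTR and 0.0806, 1.20 and 3.60 FPKM in dKO libraries. The groups overlapped through dKO library 4, which exceeded CTR libraries 1 and 6, and CTR library 4 was the highest of all. The mean was 5.32-fold lower in dKO MLECs, and the log2 fold change was −1.58 ± 0.47 (adjusted p = 0.0125). Adamtsl4 was higher, with 5.61, 8.19 and 12.9 FPKM in CTR and 13.4, 15.9 and 17.8 FPKM in dKO libraries. The groups did not overlap, with CTR library 4 just below dKO library 1. Its log2 fold change was 0.80 ± 0.15 (adjusted p = 0.000611). Adamtsl5 did not pass (0.27, adjusted p = 0.173).

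Of the 31 members that were not tested, 28 were below 1 FPKM in all libraries and 12 of these had at most 10 fragments over the 12 libraries. The 3 others were Adam5 (0.432 to 1.55 FPKM in CTR and 0.268 to 1.06 FPKM in dKO libraries), Adamts17 (0.136 to 2.09 against 0.0515 to 0.237) and Adamtsl1 (0.511 to 0.851 against 0.688 to 1.60). Adamts17 reached 1 FPKM only in CTR library 4.

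Several tested members share exon bases with a gene of the opposite strand whose mean was above 1 FPKM in both groups, and strand use is not given. Beside Mmp19, these included Adam9 with Tm2d2 (9.1% of its exon bases), Adamts9 with A730049H05Rik (9.2%), Mmp11 with Chchd10 (4.4%), Adam17 with Iah1 (4%) and Adamts7 with Tbc1d2b (1.9%). Chchd10 had mean levels of 4.53 FPKM in CTR and 1.87 in dKO MLECs, and Iah1 17.95 and 8.80. Mmp3 matched Gm15242 at 95.4% identity over 284 bases and Mmp8 matched Gm31751 at 99.4% over 163 bases, so reads could be split between these copies.

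Within each group the libraries were not alike. Library 4 was the highest CTR library for 25 of the 43 tested members and the lowest for 9, and library 6 was the lowest for 21. In the dKO group, library 1 was the lowest for 25 and the highest for 9, and library 4 the highest for 17. Members fell into opposite patterns inside the CTR group. Mmp8, Timp2, Mmp2, Adam11, Adamts15, Adamts1, Adamts3 and Adamtsl2 were highest in library 4, whereas Mmp10, Mmp13, Adamts14 and Timp1 were lowest there. Marker levels also differed within the CTR group. The summed level of 7 lung epithelial markers ran from 113 FPKM in CTR library 1 to 509 in CTR library 4, and that of 8 smooth muscle and pericyte markers from 550.0 in CTR library 4 to 1501 in CTR library 6. Whether these cells carry the members' variation was not tested. With CTR library 4 and dKO library 1 both removed, 30 members passed, 19 higher and 11 lower, while the background rose from 53.1% to 56.9% of all genes tested.

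**Figure D5:**
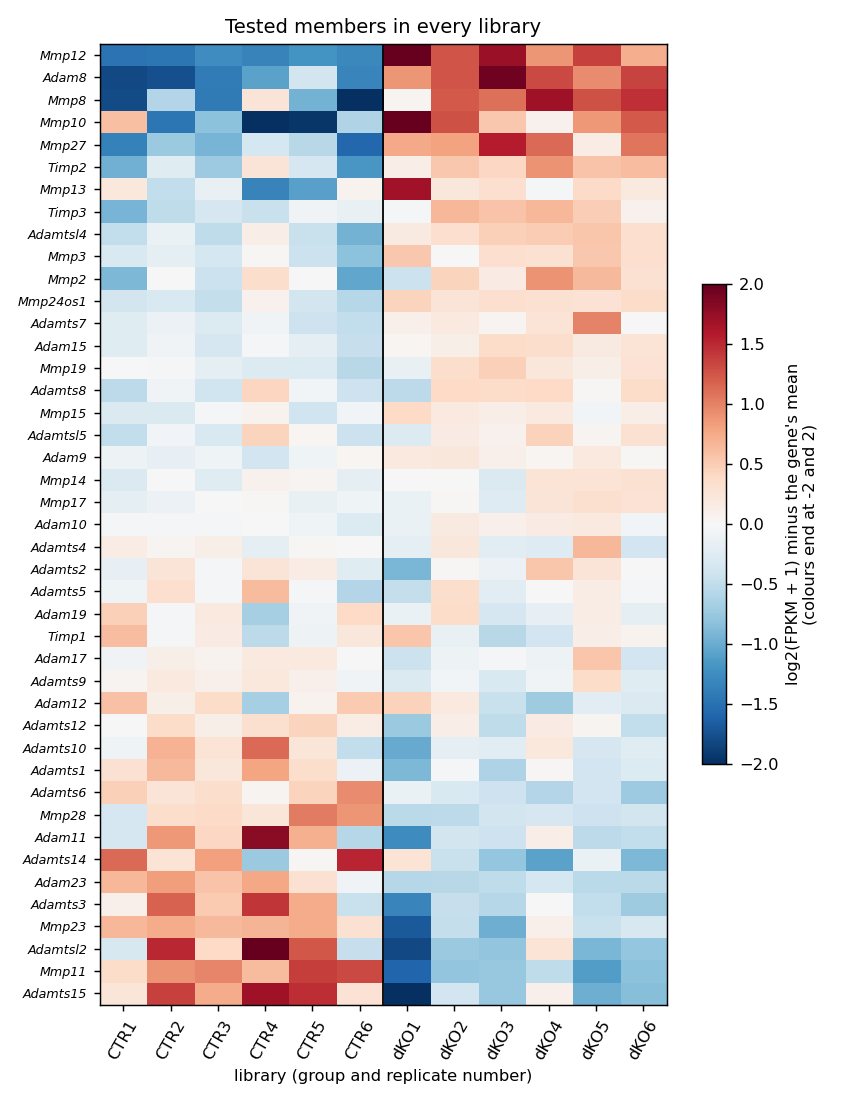
Log2(FPKM + 1) of the 43 tested members in each of the 12 libraries, as the difference from the gene's mean over all libraries (red higher, blue lower, colours end at −2 and 2), ordered by fold change with CTR libraries on the left. The rows from Mmp12 to Mmp27 at the top and from Mmp23 to Adamts15 at the bottom mostly change colour at the line between the groups, with exceptions such as Mmp8 in CTR library 4 and Mmp10 in CTR library 1.

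Other genes of these pathways were read from a list of 73 genes in the table, of which 55 were tested, 23 were higher and 6 lower in dKO MLECs. These 52.7% lie at the background of 53.1% of all genes tested, so the count is no result about the pathways, and the counts of the groups below are descriptions against the same background (20.4% higher and 32.6% lower). Among 9 tested proprotein convertases and plasminogen activation genes, which lie upstream of MMP activation, 5 were higher and 1 lower. Furin, which activates membrane-type MMPs, Mmp11 and ADAMs, was 19.7 to 23.9 FPKM in CTR and 29.2 to 34.5 FPKM in dKO libraries (log2 fold change 0.52, adjusted p = 3.62e-05). The plasminogen activators Plau (8.59 to 11.9 against 18.1 to 27.3 FPKM, log2 fold change 1.10) and Plat (5.91 to 7.75 against 11.3 to 16.5, 0.87) were higher without overlap. Serpine2, an inhibitor of both, rose as well (21.6 to 27.7 against 45.1 to 54.4, 1.06). The convertase Pcsk6 was higher (1.19) and Pcsk5 lower (−1.08). Of 5 tested genes for other inhibitors, Thbs1 was higher (1.45, adjusted p = 0.00134) and Thbs2 (−0.34) and Spock2 (−1.79) were lower, and Reck, the membrane-anchored MMP inhibitor, did not pass (0.04). Bsg, the MMP inducer basigin, was 249 to 264 FPKM in CTR and 316 to 435 FPKM in dKO libraries (0.53, adjusted p = 0.000187).

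Among 7 tested partners of ADAM10 and ADAM17, 3 were higher without overlap, while 27.4% of all genes tested had no overlap in either direction. These 3 partners were Rhbdf2 (0.58) and Frmd8 (0.59), which bring ADAM17 to the cell surface, and Tspan14 (0.64), a tetraspanin that carries ADAM10. Of 23 tested surface proteins that ADAMs shed, 12 were higher and 2, Hbegf (−0.46) and Jam3 (−0.40), lower, in all 60.9% against the background of 53.1%. Tgfa, among the higher ones, reached 1 FPKM in no CTR library, so its passing the filter already required a difference. The higher ones included Thbd (1.34), Cd44 (1.10), Icam1 (1.12), Cxcl16 (1.02) and Cdh5 (66.8 to 111 FPKM in CTR and 125 to 162 FPKM in dKO libraries, 0.66), and the adjusted p of these was at most 0.00096. Library 5 of the dKO group was the highest for Cd44 (85.0 FPKM), Icam1 (64.3 FPKM) and Cxcl16 (13.3 FPKM). For Icam1 the other dKO libraries lay at 25.4 to 39.2 FPKM. Cdh5 is also 1 of the endothelial markers summed above, most of which were higher. Of 10 tested proteoglycans and other matrix substrates, Dcn was higher (1.33) and Ltbp1 lower (−0.75), and Vcan (0.18, adjusted p = 0.516) and Fn1 (0.01, adjusted p = 0.967) did not pass.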

How the data were processed

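RNA of MLECs from CTR and dKO mice (6 libraries each) was sequenced as paired ends. The authors used Trimmomatic for trimming and STAR for mapping to mm39, remapped the uniquely aligned reads, and deposited FPKM values for 28689 genes. The submitters' processing notes also name Bowtie2 2.2.3, HISAT2 2.1.0, TopHat2 and DESeq2, with no role. The counter, its annotation and its use of strand are not given in the sources used here. Tamoxifen was given to both groups, although only the dKO columns carry its name, and columns were matched to samples through replicate number and label.

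From the deposited FPKM, log2(FPKM + 1) was computed here for the 12467 genes that reached 1 FPKM in 6 or more of the 12 libraries. Genes were tested with limma 3.58.1 in R 4.3.3 (lmFit, eBayes with a trend, no block), with Benjamini-Hochberg adjustment over all genes tested, in place of the DESeq2 test of the methods, since FPKM are not counts. Every adjusted p in the text is from this fit or a named alternative. Exact two-sided permutation tests for single members ran over all 924 assignments of 6 libraries to each group. Whole fragment numbers were recovered from the FPKM of all 28689 genes and served for depth and for alternatives. Symbols, positions, canonical starts and sequences came from GENCODE vM39 and GRCm39, the same build as mm39. Near-identical copies were sought with BLAST 2.17.0 at 95% identity over at least 150 bases and 50% of the shorter transcript. Other steps used Python 3.11.15, pandas 2.3.3, NumPy 2.4.6, numba 0.67.0 and Matplotlib 3.10.9. Only the recovery of fragments and the limma fit were tested on simulated data.

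The members and lists were chosen with earlier results of these data known. Named with values are members past an adjusted p of 0.05 with an absolute log2 fold change over 1, the 15 largest rises and 15 largest falls past that p, and Timp1 to Timp4, Mmp2, Mmp9, Mmp14, Adam10, Adam17, Adamts1 and Adamts13. Adam9 and Mmp15, also past that p, and members that did not pass are given beside them outside this rule. Alternatives were a pseudocount of 0.1 or 0.01, a filter at 5 FPKM or none, TPM, median-of-ratios and quantile scaling, limma-voom on recovered fragments, array weights, a replicate block and leaving out each library. Chosen after seeing the data were limma-voom on all genes and removal of CTR library 4 with dKO library 1. Some genes outside the family are not reported here.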

Additional observations from a re-analysis of the deposited data

Results flagged for a closer look

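In 68 groups of 6 values (34 members in CTR and in dKO), a library lay far from the nearest of the others in 13. Of these, 11 were among the 62 groups of members high enough to test, where chance gives about 1 in 20. That rate does not hold for members near 0, such as Adamts13, where 1 fragment is enough. Among CTR libraries, library 1 was high for Mmp10 (14.4 FPKM, others 0.765 to 5.73) and the only library with a fragment of Adamts13 (0.0117 FPKM, others 0). Library 4 was high for Mmp24os1 (14.4 FPKM, others 8.80 to 10.8) and Timp4 (0.991, others 0.0997 to 0.416). Library 6 was low for Adam10 (42.2 FPKM, others 48.3 to 51.3) and Mmp23 (11.02, others 14.3 to 15.4).

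Among dKO libraries, library 1 was high for Mmp10 (66.7 FPKM, others 9.81 to 23.5) and Mmp13 (16.1, others 4.19 to 5.96). Library 3 was high for Adam8 (103 FPKM, others 48.8 to 67.8). Library 4 was high for Adam23 (1.48 FPKM, others 1.14 to 1.23) and Adamtsl2 (3.60, others 0.0806 to 1.26). Library 5 was high for Adam17 (24.6 FPKM, others 11.99 to 15.99) and Adamts7 (12.99, others 6.07 to 7.51).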

How the results depend on the processing

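Of 24 alternatives, none reversed the direction of a named or called member it could be fitted for. Of these 33 tested members, 24 were fitted in all 24, and 16 of them kept their call throughout. The other 9 were too low for the filter at 5 FPKM, and 8 of them kept their call in the other 23. With that filter, 31 members were tested and 8 passed both thresholds (4 higher, 4 lower), against 13 of 43 (6 higher, 7 lower). With a pseudocount of 0.1 or 0.01, on the TPM scale and with limma-voom the count was 17 (7 higher, 10 lower), with limma-voom on all genes 19 (9 higher, 10 lower), and with median-of-ratios or quantile scaling 11 (6 higher, 5 lower). The share of all genes tested past both thresholds was taken in the main fit only (5.93%). Changes of this count between alternatives, also on leaving out a library, are therefore not read as a result about the members. Leaving out each library in turn gave 25 to 30 members past the adjusted p (background 47% to 54.9% of all genes tested), 12 to 13 past both thresholds, 28 to 32 other pathway genes past the adjusted p, and log2 fold changes of −0.98 to −0.89 for Sp1 and −0.18 to −0.11 for Sp3. Sp3 passed on the TPM scale (−0.20, adjusted p = 0.0496), under array weights (−0.15 at 0.039) and without CTR library 6. Besides the single libraries named in the report, Adam11, Adamts12, Adamts14, Mmp13 and Mmp2 did not pass without the filter on low values (adjusted p of 0.0579 to 0.0896), Mmp2 did not pass with TPM or quantile scaling, Adam9 did not pass with quantile scaling (0.12, adjusted p = 0.231), Adamts12 did not pass with median-of-ratios scaling or array weights, and Adam11 did not pass with limma-voom on all genes. Removal of CTR library 4 and dKO library 1 together ended the calls of Adam11, Adamts12 and Mmp13. Adam10 passed with median-of-ratios scaling, array weights and that removal, and Mmp14 with median-of-ratios scaling. The cause was not tested. With the replicate number as a replicate block, 31 members passed, 18 higher and 13 lower, against a background of 55.8% of all genes tested in the same fit. The correlation of same-numbered libraries ran from −0.11 to 0.57, so the numbers were not taken as pairs, and not every CTR library correlated best with its own number.

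Depth limits the lowest members, since 1 fragment on 2 kb is worth about 0.03 FPKM, and 12 members with at most 10 fragments in all could not be compared. Bulk RNA of mixed cultures, overlapping genes without a stated strand setting, and libraries whose number of mice is not given limit what a difference can be assigned to.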
